A study of Mus musculus with 12 samples.

Results

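The genes described here encode 10 RNA-binding proteins that set splice patterns in striated muscle: *Rbm20*, *Rbm24*, *Rbfox1*, *Rbfox2*, *Celf1*, *Celf2*, *Mbnl1*, *Mbnl2*, *Ptbp1* and *Qk*. Their members in the data were the peaks of trimethylated lysine 4 of histone H3 (H3K4me3) that carried one of these gene names, which were 7 peaks of 6 genes out of 15848 peaks in all. *Qk* was listed under its other symbol *Qki* with the same gene identifier, and its peaks brought the number to 9 peaks of 7 genes. No peak carried the name of *Rbfox1*, *Celf2* or *Mbnl1*. A further 16 peaks without a gene name overlapped 7 of the 10 genes on the GRCm38 annotation (GENCODE vM21) and are called inside peaks. All lay within the gene except the upstream *Rbfox1* peak, of which 82.2% was outside. They are described separately because they were added by position after values had been seen. All 9 assigned peaks and 14 of the 16 inside peaks passed the filter on low values.

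The mark was measured by ChIP-seq, the sequencing of immunoprecipitated chromatin, in nuclei of adult mouse cardiomyocytes (CMs) that had been sorted by flow cytometry for PCM1, a protein of the CM nuclear surface. In the Cpt1bcKO group (αMHC-Cre pos/+;Cpt1b fl/fl), Cre under the CM promoter αMHC inactivates *Cpt1b*, which admits long-chain fatty acids to mitochondria. The CtrlCre group also carried αMHC-Cre but no floxed *Cpt1b*, so both genotypes expressed the recombinase. All mice were on a C57BL/6 background. There were 3 ChIP libraries of each genotype, and 6 input libraries were not used here. The labels do not say whether a library came from 1 animal or from pooled animals, so p-values measure the spread between these libraries.

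RBM20 and RBM24 promote the adult, heart-specific splicing of sarcomere and calcium-handling transcripts, and RBM20 is a disease gene of dilated cardiomyopathy. RBFOX and MBNL proteins favour adult splice forms during muscle maturation, whereas CELF proteins and PTBP1 often act against them on the same transcripts. H3K4me3 marks the starts of genes that are transcribed or poised, and at genes typical of a cell type it often spreads into the gene body as a wide domain.

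Counts in peaks ranged from 763133 to 2766416 per library, and the libraries correlated with each other at 0.914 to 0.967 (Pearson's r over peaks). The peak over *Cpt1b* (9156 bases) stood at 428, 407 and 436 in CtrlCre and at 572, 689 and 568 in Cpt1bcKO (log2 difference 0.52, SE 0.10, adjusted p = 0.00357, limma), but a histone mark over so wide a peak does not check the deletion. Peaks over the 13 listed CM marker genes had a median width of 10980 bases. Of 20 listed markers of other heart cells, 4 had a tested peak under their names. These were the endothelial gene *Kdr*, the fibroblast gene *Pdgfra* and the mural genes *Cspg4* and *Myh11*. The leukocyte markers *Ptprc* and *Csf1r*, the endothelial markers *Pecam1* and *Cdh5* and the fibroblast markers *Col1a1* and *Tcf21* had none under their names. Unnamed peaks at the marker genes were not searched for by position.

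The start sites of these genes differed in base composition, and the sequences upstream of 4 of them are shown because they include an *Mbnl1* start without a peak and the *Rbfox1* start whose peak fell. RefSeq promoters (GRCm38.p6) were found for 8 of the 10 genes, with 14 starts, of which 10 overlapped a peak described here; *Rbm20* and *Rbfox2* had no entry. Each run gives the 250 bases before a start, on the strand of the gene, and capitals mark matches on either strand to the TATA box (TATAAA), to the GC box bound by SP factors (GGGCGG) or to an E-box of muscle regulatory factors (CAGCTG).

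*Mbnl1*, first start without a peak, chr3:60472580-60472829, plus strand: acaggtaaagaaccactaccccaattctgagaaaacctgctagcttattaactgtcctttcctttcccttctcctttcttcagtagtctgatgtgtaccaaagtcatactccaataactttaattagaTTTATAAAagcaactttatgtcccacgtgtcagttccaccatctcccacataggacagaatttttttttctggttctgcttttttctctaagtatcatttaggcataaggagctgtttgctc

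*Mbnl1*, next start, under a peak, chr3:60500929-60501178, plus strand: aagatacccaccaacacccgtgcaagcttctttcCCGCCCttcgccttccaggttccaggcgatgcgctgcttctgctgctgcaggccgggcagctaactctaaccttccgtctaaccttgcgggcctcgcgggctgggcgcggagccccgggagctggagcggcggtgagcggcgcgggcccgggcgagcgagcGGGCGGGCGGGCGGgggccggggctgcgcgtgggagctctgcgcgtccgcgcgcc

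*Rbfox1*, upstream start, under a low peak, chr16:5884543-5884792, plus strand: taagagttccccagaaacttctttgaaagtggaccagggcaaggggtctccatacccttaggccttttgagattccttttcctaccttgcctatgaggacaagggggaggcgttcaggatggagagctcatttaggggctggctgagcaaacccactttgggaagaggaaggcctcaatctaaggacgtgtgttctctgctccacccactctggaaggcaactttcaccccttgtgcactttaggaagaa

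*Rbfox1*, internal start, under the peak that fell, chr16:7069585-7069834, plus strand: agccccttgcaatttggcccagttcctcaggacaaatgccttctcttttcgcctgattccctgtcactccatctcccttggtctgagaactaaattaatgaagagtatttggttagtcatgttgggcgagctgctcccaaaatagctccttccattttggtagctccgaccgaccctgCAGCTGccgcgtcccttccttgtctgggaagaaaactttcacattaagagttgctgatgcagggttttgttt

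The window before the first *Mbnl1* start had 38.0% G or C, 1 CpG and 2 overlapping matches to TATAAA, one on each strand. The window before the next *Mbnl1* start had 73.6% G or C, 33 CpGs and 4 matches to GGGCGG, 3 of them overlapping in 1 run. At *Rbfox1*, the upstream window held 2 CpGs and none of these motifs, and the internal window held 6 CpGs and 1 CAGCTG. Over the 32851 RefSeq windows of this length, the median was 52.4% G or C and 6 CpGs. TATAAA occurred in 12.4% of them, GGGCGG in 32.7% and CAGCTG in 13.0%. The MEF2 box (2.92% of windows) and the CArG box (1.47%) were found in none of the 14 windows. The window of *Qk* was the richest of the 14 in CpGs, with 52 of them, 84.8% G or C and 5 matches to GGGCGG. A match to these letters is a description of the window and does not show that a factor binds there.

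At the assigned peaks, the members differed far more from each other than between the genotypes. The level of a peak is its DESeq2-normalized count, which is not corrected for width. *Qk* encodes Quaking, which regulates splicing of muscle and other transcripts, and its main peak was the highest and widest of the set. This peak (chr17:10305902-10318975, 13073 bases) ranked 25 in level and 15 in width among the 15039 tested peaks. It lay within the gene, 98.1% of it over introns, and began 386 bases downstream of the nearest annotated start. The *Rbm20* peak (chr19:53673960-53683401, 9441 bases) ranked 101 in level and 58 in width. The main *Rbm24* peak (chr13:46417809-46424454, 6645 bases) ranked 147 in level and held the starts of all 5 annotated *Rbm24* transcripts. *Mbnl2* (chr14:120275093-120279736, 4643 bases) ranked 336 in level. The assigned peaks of *Ptbp1* (chr10:79853244-79856957), *Celf1* (chr2:90940088-90942206) and *Rbfox2* (chr15:77305642-77307919) were narrower, at 3713, 2118 and 2277 bases.

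**Figure D1:**
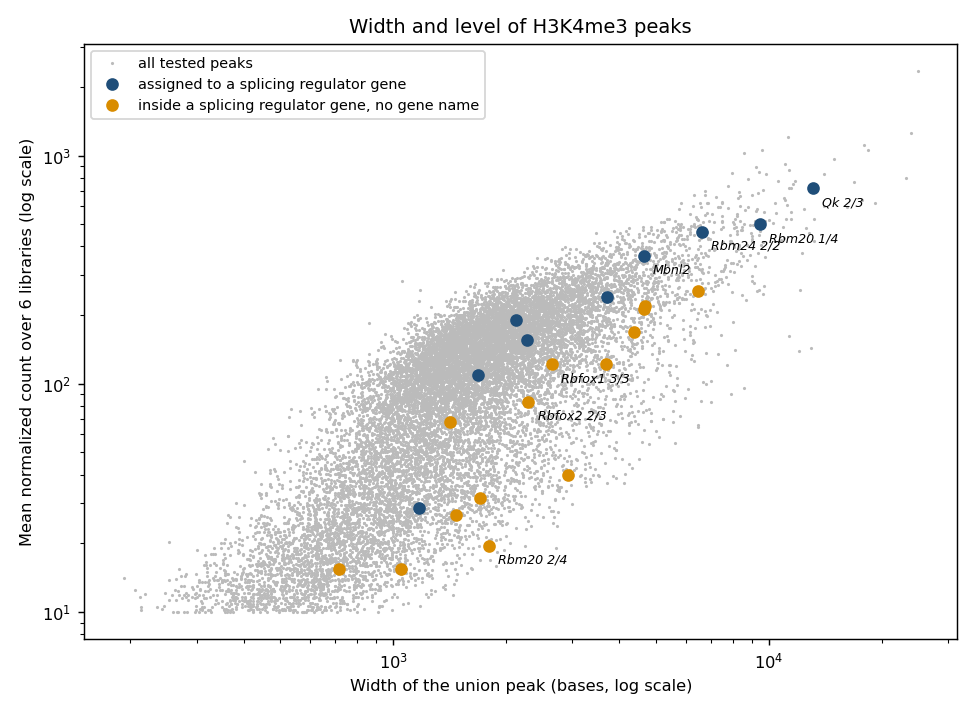
Width of each union peak in bases (horizontal, log scale) and mean DESeq2-normalized count over 6 libraries (vertical, log scale). Grey points are the 15039 tested peaks, blue points the 9 assigned peaks and orange points the 14 tested inside peaks, and a label such as Qk 2/3 means the second of 3 peaks of the gene along the chromosome; the main peaks of *Qk*, *Rbm20* and *Rbm24* lie at the wide, high end of the cloud.

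Of the 9 assigned peaks, 6 were wider than 2222 bases, the upper quartile of all tested peaks. Per kilobase the order changed: *Celf1* was densest at 89.8 normalized counts per kilobase, *Mbnl2* stood at 78.0 and *Rbm24* at 69.9, while *Rbm20* stood at 53.0 and the main *Qk* peak at 55.1. The median of all tested peaks was 60.5 per kilobase. The high totals of *Rbm20* and *Qk* thus came with wide peaks of below-median density.

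RBM20 represses exons of titin and other sarcomere transcripts. Its start peak stood at 509, 453 and 570 in CtrlCre replicates 1 to 3 and at 450, 584 and 439 in Cpt1bcKO replicates 1 to 3. The genotypes overlapped, with the highest and the lowest value both in Cpt1bcKO (log2 difference -0.06, SE 0.11, 95% interval -0.30 to 0.18, adjusted p = 0.892).

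RBM24 promotes inclusion of muscle exons in heart and skeletal muscle. Its main peak stood at 492, 398 and 538 in CtrlCre and at 477, 492 and 388 in Cpt1bcKO, with a log2 difference of -0.07 (SE 0.12, adjusted p = 0.875). A small peak 3821 bases upstream of the gene (chr13:46413441-46414613) stood at 24, 26 and 43 in CtrlCre and at 23, 28 and 27 in Cpt1bcKO. The values of both peaks overlapped between the genotypes.

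Among the antagonists of the adult programme, *Ptbp1* stood at 247, 228 and 262 in CtrlCre and at 233, 233 and 245 in Cpt1bcKO (log2 difference -0.05, SE 0.10, adjusted p = 0.901). *Celf1* stood at 187, 207 and 176 against 183, 179 and 209 (log2 difference 0.00, SE 0.11, adjusted p = 0.998). The interval of the *Celf1* difference ran from -0.22 to 0.22 and that of *Ptbp1* from -0.25 to 0.15. The *Ptbp1* peak also overlapped the gene *E130317F20Rik*, and its reads cannot be divided between them.

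Of the regulators that favour adult splicing, *Mbnl2* and *Rbfox2* had an assigned peak. *Mbnl2* stood at 352, 353 and 386 in CtrlCre and at 357, 430 and 295 in Cpt1bcKO (log2 difference -0.03, SE 0.11, adjusted p = 0.967). The first peak of *Rbfox2*, over the starts of 3 coding transcripts, stood at 129, 181 and 146 against 183, 130 and 167 (log2 difference 0.07, SE 0.14, adjusted p = 0.894). The values of the genotypes overlapped in both genes.

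The main *Qk* peak stood at 764, 639 and 767 in CtrlCre and at 642, 863 and 648 in Cpt1bcKO (log2 difference -0.02, SE 0.12, adjusted p = 0.976). A smaller *Qk* peak over the start of the transcript Qk-202 (chr17:10319547-10321228) stood at 102, 65 and 142 against 114, 119 and 110 (log2 difference 0.22, SE 0.19, adjusted p = 0.708). The 3 Cpt1bcKO values of this smaller peak lay within the range of the CtrlCre values.

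**Figure D2:**
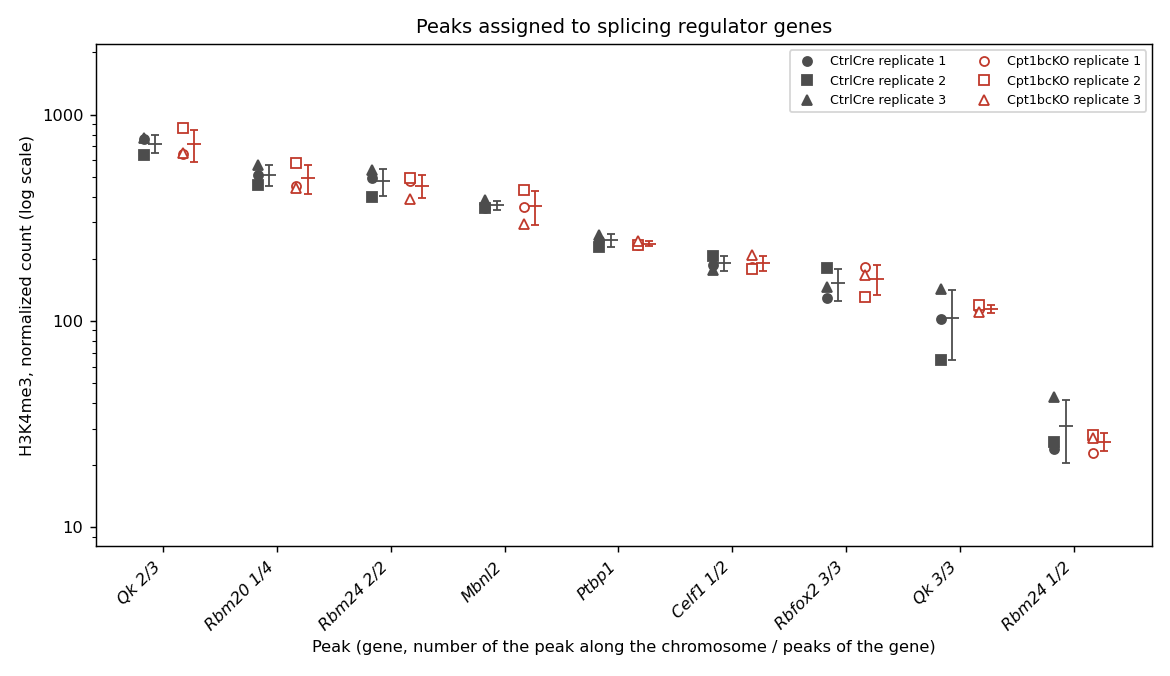
DESeq2-normalized H3K4me3 count (vertical, log scale) of the 9 assigned peaks in each library, with CtrlCre in filled grey and Cpt1bcKO in open red symbols, replicates 1 to 3 as circle, square and triangle, and mean with SD (n = 3) beside them. The genotypes overlap at every peak shown.

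By limma on log2(value + 1), 0 of the 9 assigned peaks passed an adjusted p of 0.05, where 1.11% of all tested peaks were called higher and 1.82% lower in Cpt1bcKO, and 2.22% of the peaks with a gene name were called in either direction. At an unadjusted p of 0.05 the count was also 0 of 9, against 12.8% of all tested peaks, and limma-voom on recovered counts gave 0 by both criteria. In 0 of 9 did the values of the genotypes not overlap, which was so for 16.3% of all tested peaks. The differences ran from -0.20 to 0.22 with a median of -0.03, beside 0.006 over all tested peaks, and their 95% intervals together spanned -0.83 to 0.60. The widest of these intervals was that of the upstream *Rbm24* peak, and the upper bound was that of the smaller *Qk* peak, whose CtrlCre values ran from 65 to 142.

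Several of the high member peaks varied alike between some libraries of a genotype. Relative to the genotype mean on the log2 scale, *Rbm20* was at 0.16 in CtrlCre replicate 3 and 0.26 in Cpt1bcKO replicate 2, and at -0.17 in CtrlCre replicate 2 and -0.15 in Cpt1bcKO replicate 3. The main *Qk* peak took 0.09, 0.28, -0.17 and -0.13 in these libraries, and the 13 CM marker genes took a median of 0.15, 0.21, -0.14 and -0.25. The median of all tested peaks of at least 5000 bases was smaller in these libraries, at 0.05, 0.09, -0.04 and -0.09. In Cpt1bcKO replicate 1 the members differed in sign, with *Rbm20* at -0.11 and *Qk* at -0.15 but *Rbm24* at 0.08, and the CM markers stood at 0.04. In CtrlCre replicate 1 *Rbm20* was at 0.00, *Qk* at 0.08 and the CM markers at -0.02. *Celf1* went the other way, with -0.11, -0.08, 0.13 and 0.14. Over 6 libraries the *Rbm20* peak correlated at 0.95 with the main *Qk* peak, at 0.83 with *Mbnl2*, at -0.81 with *Rbfox2* and at -0.78 with *Celf1* (Pearson's r, a description of 6 points that share their depth). Of all peaks with a gene name, those most like it were *Csnk1a1* (0.99), *Elmod3* (0.987) and *Sdhd* (0.985).

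Inside the genes, 3 of the 14 tested peaks without a gene name were called lower in Cpt1bcKO and 0 higher, by limma with adjustment over all tested peaks. The background of lower calls among all tested peaks without a gene name was 3.53%. The genotypes did not overlap at 4 of the 14, beside the 16.3% of all tested peaks given above. The 3 peaks belonged to *Rbfox1*, *Rbfox2* and *Rbm20*, and only the *Rbfox1* call held under every alternative run. The median difference of the 14 was -0.11, with 8 below and 6 above 0, beside a median of -0.072 over all tested peaks without a gene name.

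*Rbfox1*, whose protein binds UGCAUG in introns to promote muscle exons, spans 1526172 bases and had 2 tested peaks. The higher of them (chr16:7069496-7072149, 2653 bases) covered the internal start of the coding transcript Rbfox1-203, whose upstream sequence is printed above with its CAGCTG. It stood at 155, 158 and 156 in CtrlCre and at 90, 105 and 68 in Cpt1bcKO. Every Cpt1bcKO library was below every CtrlCre library. The level fell by 44.5% (log2 difference -0.85, SE 0.14, 95% interval -1.14 to -0.55, adjusted p = 0.000858, limma). Leaving out single libraries gave differences of -0.99 to -0.68 and adjusted p-values of 0.000521 to 0.00957. The recovered counts behind these values were 184, 68 and 166 in CtrlCre and 80, 161 and 95 in Cpt1bcKO.

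The upstream *Rbfox1* peak (chr16:5884149-5885616) over the first start of the gene was low, at 29, 19 and 37 in CtrlCre and 18, 30 and 27 in Cpt1bcKO, with overlapping genotypes (log2 difference -0.16, SE 0.32, adjusted p = 0.91). On the log2 scale its ratio to the internal peak was -2.47 ± 0.48 (SD, n = 3) in CtrlCre and -1.78 ± 0.48 in Cpt1bcKO. The difference of these ratios, 0.69, had an exact permutation p of 0.2 (two-sided, n = 3 and 3). The remaining *Rbfox1* peak (chr16:7049245-7049711) was left out by the filter, at 15, 9 and 8 in CtrlCre and 9, 8 and 4 in Cpt1bcKO.

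*Rbfox2*, the paralogue that acts on many of the same exons, had 3 peaks along its body. The middle peak (chr15:77201726-77204018, 2292 bases) covered the start of the noncoding transcript Rbfox2-205. It stood at 108, 98 and 95 in CtrlCre and at 53, 63 and 83 in Cpt1bcKO, with no overlap. It fell by 34.6% (log2 difference -0.61, SE 0.17, 95% interval -0.96 to -0.26), at an adjusted p of 0.0496 by limma that sat at the threshold. It was 0.0521 by limma-voom, 0.0605 after quantile normalization and 0.0714 with the replicate block, and between 0.0192 and 0.265 when single libraries were left out. The peak over 6 coding starts further into the gene (chr15:77150401-77154085) stood at 107, 112 and 128 in CtrlCre and at 119, 147 and 120 in Cpt1bcKO. The ratio of the middle to the first peak was -0.58 ± 0.31 in CtrlCre and -1.27 ± 0.43 in Cpt1bcKO (log2, SD, n = 3), with an exact two-sided permutation p of 0.1, the smallest that 3 against 3 allows, and an adjusted p of 0.65 over 13 ratios.

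The 151 bases around the summit of the middle *Rbfox2* peak are shown because no annotated exon lies in them, on the plus strand of the build.

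*Rbfox2*, middle peak, chr15:77203126-77203276: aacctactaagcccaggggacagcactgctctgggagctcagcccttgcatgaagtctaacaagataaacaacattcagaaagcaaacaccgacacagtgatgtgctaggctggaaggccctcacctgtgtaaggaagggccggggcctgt

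*Rbm20*, intronic peak, chr19:53690076-53690226: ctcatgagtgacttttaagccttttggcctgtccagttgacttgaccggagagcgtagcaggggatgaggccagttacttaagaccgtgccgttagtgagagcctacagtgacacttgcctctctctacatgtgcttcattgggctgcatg

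The *Rbm20* run lies in a peak 12357 bases downstream of the start (chr19:53689663-53691465, 1802 bases), entirely in intron. Neither run held any of the motifs searched. This intronic peak was low, with 24, 15 and 35 recovered counts in CtrlCre and 10, 11 and 15 in Cpt1bcKO. The normalized values were 20, 35 and 33 in CtrlCre and 11, 7 and 11 in Cpt1bcKO, without overlap. It fell by 64.5% (log2 difference -1.49, SE 0.39, 95% interval -2.30 to -0.68, adjusted p = 0.0372, limma). The adjusted p rose to 0.0543 with the replicate block, to 0.0569 after quantile normalization and to between 0.0575 and 0.153 without single libraries.

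The other 2 inside peaks of *Rbm20* were not called. The peak over the internal coding start of Rbm20-202 (chr19:53791826-53798298, 6472 bases) stood at 268, 216 and 295 in CtrlCre and at 257, 275 and 215 in Cpt1bcKO. Its ratio to the start peak was -0.98 ± 0.08 in CtrlCre and -0.97 ± 0.15 in Cpt1bcKO (log2, SD, n = 3). A second small intronic peak (chr19:53697837-53698555) stood at 9, 14 and 19 against 17, 22 and 12.

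The levels of marker genes are set beside these 3 peaks. The summed level of the 2 mural genes with a peak, *Cspg4* and *Myh11*, ran from 69 to 98 in CtrlCre and from 22 to 53 in Cpt1bcKO. The endothelial gene *Kdr* ran from 39 to 91 against 31 to 51, and *Pdgfra*, which marks fibroblasts, from 58 to 69 against 56 to 63. The 13 CM markers summed to between 10546 and 12434 in CtrlCre and between 8108 and 11315 in Cpt1bcKO. The part of these cells in the called differences was not tested.

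**Figure D3:**
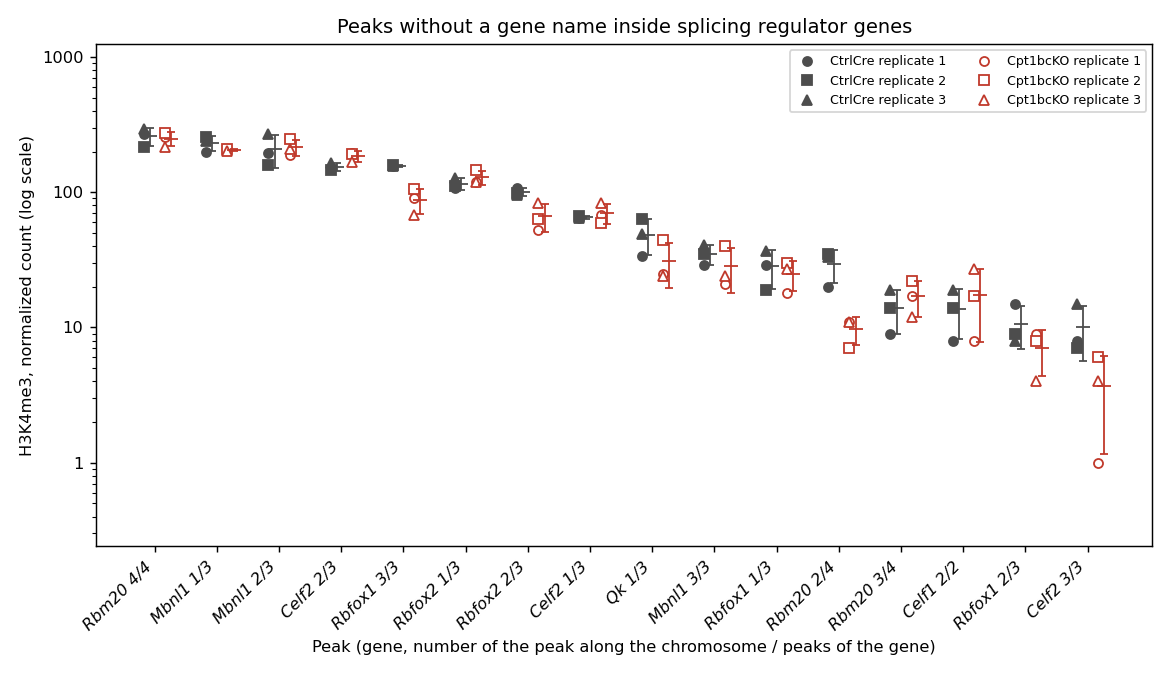
DESeq2-normalized H3K4me3 count (vertical, log scale) of the 16 peaks inside the genes, with symbols, means and SD (n = 3) as for the assigned peaks. Rbfox1 3/3, Rbfox2 2/3 and Rbm20 2/4 have all Cpt1bcKO values below all CtrlCre values, and the 2 peaks at the right did not pass the filter.

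*Celf2* had 2 tested peaks inside the gene. The higher (chr2:7078606-7082989) covered 3 coding starts and carried the identifier of an overlapping long noncoding RNA, *Gm26565*. It stood at 151, 146 and 165 in CtrlCre and at 194, 193 and 166 in Cpt1bcKO, so that all Cpt1bcKO values were above, the closest by 166 to 165. The difference was 0.26 (SE 0.11, unadjusted p = 0.028, adjusted p = 0.299) and was not called. The downstream peak (chr2:6871738-6873156), under the *Celf2* promoter of 82.8% G or C, stood at 64, 67 and 65 against 68, 59 and 83. The RefSeq start under the higher peak had 47.2% G or C, within the 45.6% to 54.4% of the 3 *Celf2* starts without an overlapping peak. The remaining peak (chr2:7089376-7089919) was not tested, at 8, 7 and 15 against 1, 6 and 4.

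*Mbnl1*, whose protein is sequestered by expanded repeats in myotonic dystrophy, had peaks over 2 groups of internal starts and none over its first start, whose sequence is printed above. The peak at chr3:60500423-60505106 stood at 199, 258 and 240 in CtrlCre and at 207, 209 and 202 in Cpt1bcKO (log2 difference -0.16, SE 0.11, adjusted p = 0.574). The peak at chr3:60527630-60532292 was deposited under another gene identifier without a gene name. It stood at 195, 160 and 271 against 187, 247 and 209 (log2 difference 0.06, SE 0.14, adjusted p = 0.921). These 2 starts stood at nearly the same level and overlapped between the genotypes. An intronic peak (chr3:60576014-60577712) was low, at 29, 35 and 41 against 21, 40 and 24.

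An intronic *Qk* peak (chr17:10289550-10292478) stood at 34, 63 and 49 in CtrlCre and at 25, 44 and 24 in Cpt1bcKO (log2 difference -0.65, SE 0.28, unadjusted p = 0.0323, adjusted p = 0.319). Its genotypes overlapped, as 44 in Cpt1bcKO replicate 2 exceeded 34 in CtrlCre replicate 1. A small peak in *Celf1* (chr2:90965088-90966137) stood at 8, 14 and 19 against 8, 17 and 27.

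**Figure D4:**
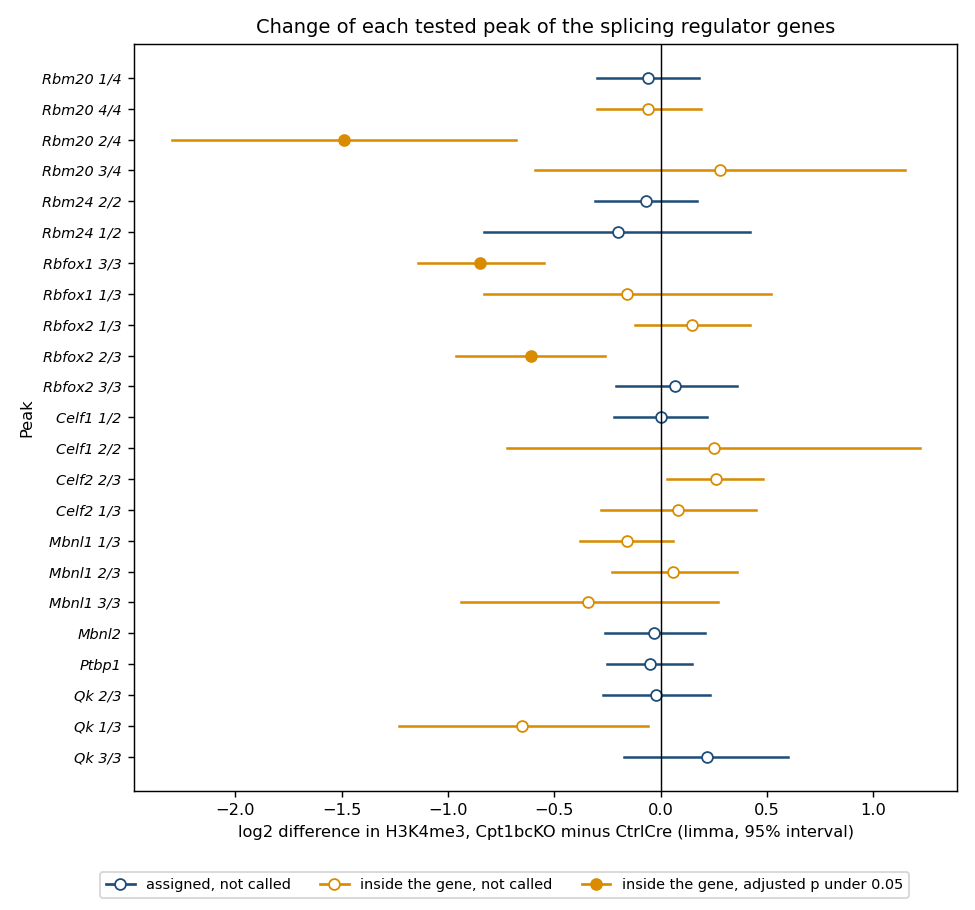
Log2 difference in H3K4me3, Cpt1bcKO minus CtrlCre, with its 95% interval (limma) for the 23 tested peaks of the genes. Blue marks assigned and orange inside peaks, and the filled points, at -1.49, -0.85 and -0.61, passed an adjusted p of 0.05.

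Across the 8 genes with a second tested peak, 13 ratios of a further peak to the highest peak of its gene were compared between the genotypes. In 2 of the 13, those of the middle *Rbfox2* and the intronic *Rbm20* peaks, the genotypes did not overlap. The intronic *Rbm20* ratio was -4.11 ± 0.47 in CtrlCre and -5.54 ± 0.56 in Cpt1bcKO (log2, SD, n = 3). The smallest adjusted p over the 13 exact two-sided permutation tests was 0.65, and none could reach 0.05 because the smallest p of 3 against 3 is 0.1.

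Other splicing genes, each taken by the highest peak under its gene name, were not called either. Unnamed peaks at these genes were not searched for by position. Of the related tissue regulators 19 of 31 listed had a tested peak, of SR proteins and their kinases 21 of 22, of hnRNP proteins 19 of 22 and of the core spliceosome 29 of 34. The calls were 0 in each of these lists by limma, where 107 of all 11067 genes with a tested peak were called higher and 139 lower. At an unadjusted p under 0.05 the lists held 0, 1, 3 and 1 genes, beside 1252 of the 11067. Their median log2 differences were 0.03, 0.04, 0.01 and 0.06, beside 0.02 over the 11067 genes with a tested peak and -0.03 over the 7 member genes, of which 0 were called.

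Transcripts of heart and other muscle known to be spliced by these proteins were taken by their highest peak in the same way. Of 28 genes with a tested peak 5 were called lower and 0 higher, and their median difference was -0.10. The 13 CM markers leaned alike, with 2 called lower, 0 higher and a median of -0.16, and the lists were not tested against each other. Both lists hold *Tnnt2*, *Ttn* and *Ryr2*, by the same peaks, so they are not independent. In the same test over all genes, 139 of 11067 were lower and 107 higher. *Myocd*, the coactivator of SRF, stood at 452, 423 and 454 in CtrlCre and at 286, 314 and 263 in Cpt1bcKO (log2 difference -0.62, adjusted p = 0.000364). *Abcc9*, a subunit of potassium channels, went from 183 ± 15.3 to 126 ± 19.5 (adjusted p = 0.0127), and *Trdn*, which anchors calsequestrin, from 359 ± 18.2 to 255 ± 62.5 (adjusted p = 0.0194). *Clcn1*, a chloride channel, was also among the 5 but was low, at 21.7 ± 2.31 against 5 ± 2.65 (SD, n = 3). It is named because its value was seen. The count of 5 was 7 after quantile normalization, 6 by limma-voom and 4 with a mean of at least 50. Without CtrlCre replicate 1, Cpt1bcKO replicate 1 or Cpt1bcKO replicate 3 it was 2.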

How the data were processed

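H3K4me3 ChIP-seq values of 3 CtrlCre and 3 Cpt1bcKO libraries were analysed. Per the submitters' notes and methods, the authors trimmed reads with Trimmomatic 0.39, aligned them to GRCm38 with STAR 2.6.1d, removed duplicates with Picard 2.21.7, called peaks per library against input with MUSIC and merged them. The values the authors deposited are counts that the authors normalized with DESeq2 1.26.0 and rounded to whole numbers, treated here as a score, and the deposited mean signal per genotype is unrounded. Log2 fold changes, p-values and adjusted p-values of the authors' own comparison were deposited and not used, nor was the deposited fraction of a peak in the gene body. Size factors centre the bulk of peaks, so a change shared by all peaks is not visible.

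Peaks with a mean of at least 10 (15039) were tested by limma 3.58.1 with trend (R 4.3.3) on log2(value + 1), genotype only, Benjamini-Hochberg over all tested peaks. A fold change on this scale understates changes of low peaks. Peaks inside genes were found by any overlap with the gene on GENCODE vM21. Whole counts were recovered from rounded values and genotype means with a single solution for 15848 of 15848 peaks. On simulated tables of that size the recovery was exact in 100.0% of peaks in both genotypes; on the first 8000 peaks it failed for CtrlCre (0.0% exact), visible as a gap of 0.58. On simulated counts for 15039 peaks, limma recovered 58.8% of 1.5-fold, 89.4% of 2-fold and 93.9% of 3-fold changes. The simulated spread beyond counting was an SD of 0.059 on the log2 scale, the same for every peak. The *Rbm20* start peak deviated by -0.17 to 0.26 from its genotype means, so these shares can be too high for such peaks.

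Members and lists were chosen with earlier results of these data known. Every member peak was named. In other lists the called genes were named, at most 4 per direction by smallest p, and, for the *Rbm20* peak, the 3 gene-assigned peaks of highest correlation. The values of 1 called gene of these lists are not reported here.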

Additional observations from a re-analysis of the deposited data

How the results depend on the processing

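The alternatives were a pseudocount of 5, no filter or a mean of at least 50, quantile normalization, median centring, limma-voom on recovered counts, the replicate block and leaving out each library. Under all of them 0 member peaks and 0 member genes were called, also by the widest peak or the sum of peaks of a gene. Peaks called across the table numbered 441, 1929 at an unadjusted p under 0.05, 370 with the replicate block and 229 to 431 without single libraries, with 229 without CtrlCre replicate 1, 288 without Cpt1bcKO replicate 2 and 246 without Cpt1bcKO replicate 3. Replicate numbers did not pair the libraries (correlations of deviations 0.076, -0.081 and 0.11, and 3 of 6 libraries correlated best with their own number). The count of genes called over the lists was 2 to 5 without single libraries, all of them among the heart and other muscle transcripts. In the lists of other splicing genes it was 0 under every alternative. The inside peaks, added after seeing the data, gave 3 lower calls, and 2 by limma-voom. They gave 1 with a mean of at least 50, after quantile normalization or with the replicate block, and 1 to 2 without single libraries. The filter at a mean of 50 removed the intronic *Rbm20* peak (mean 19.5), so it was not retested there. Of the 13 ratios, 2 did not overlap, 2 to 4 without single libraries (4 without CtrlCre replicate 3, Cpt1bcKO replicate 2 or Cpt1bcKO replicate 3), and in the replicate block 6 had paired differences of 1 sign. Differences near 0 changed sign. *Celf1* was -0.0093 after quantile normalization and -0.007 after median centring, the main *Qk* peak 0.019 after quantile normalization, and the *Mbnl1* peak at 60527630 -0.0098 by limma-voom. Without single libraries the ranges that crossed 0 were -0.19 to 0.02 (*Rbm20* start), -0.18 to 0.046 (*Rbm20* internal start), -0.19 to 0.037 and -0.36 to 0.051 (*Rbm24* main and upstream), -0.037 to 0.21 (*Rbfox2* first peak), -0.067 to 0.065 and -0.13 to 0.69 (*Celf1* start and small peak), -0.16 to 0.11 (*Mbnl2*), -0.16 to 0.053 and -0.074 to 0.48 (*Qk* main and smaller start peak), -0.41 to 0.055 (*Rbfox1* upstream), -0.044 to 0.20 (*Celf2* downstream) and -0.11 to 0.27 (*Mbnl1* at 60527630). The cause was not tested. Low depth of CtrlCre replicate 2, where 3 counts correspond to a value of 6.97, limits the small intronic peaks.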
